A study of Homo sapiens with 6 samples.

Results

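The insulin-like growth factor (IGF) axis was followed as 10 genes in TC71, an Ewing sarcoma (EWS) cell line, with and without EHD1 knockdown (EHD1-KD). The genes were the ligands IGF1 and IGF2, the receptors IGF1R, INSR and IGF2R, the receptor substrates IRS1 and IRS2, and the binding proteins IGFBP2, IGFBP3 and IGFBP5. They were taken by gene symbol from a table of 60676 genes, and 8 of the 10 were among the 16785 genes with enough counts to test, which means at least 10 counts in at least 3 libraries. The study asked how EHD1, a regulator of endocytic recycling, affects the traffic of IGF-1R in EWS cells, and RNA-seq of knockdown cells was 1 of its experiments. Both groups carried a Dox-inducible lentiviral vector with a GFP reporter, and both received Dox at 0.5 µg/ml over 3 days. The vector expressed a non-targeting shRNA in the control group (shNTC+Dox, 3 libraries) and an shRNA against EHD1 in the knockdown group (shEHD1+Dox, 3 libraries). The lines were polyclonal, selected with puromycin, and the sources used here do not name the EHD1 shRNA behind the shEHD1 libraries. Cells without Dox were not analysed here, and nothing states that the 3 libraries of a group came from separate cultures, so the p-values measure the spread between these libraries, which may be technical. Total counts were 26528902, 28203023 and 22711235 in shNTC+Dox libraries 1, 2 and 3, and 28157184, 24150135 and 30582187 in shEHD1+Dox libraries 1, 2 and 3.

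IGF-1 and IGF-2 bind IGF-1R, a receptor tyrosine kinase that recruits IRS-1 and IRS-2 and through them the PI3K-AKT and ERK pathways. The insulin receptor, encoded by INSR, is its nearest relative and can pair with it in hybrid receptors, while IGF2R has no kinase domain and carries IGF-2 and mannose 6-phosphate-tagged enzymes to lysosomes. The IGFBPs hold the ligands in the extracellular space, and autocrine IGF-1 signaling through IGF-1R is a known feature of EWS cells, in which the EWS-FLI1 fusion represses IGFBP3.

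Of the 8 tested genes of the axis, 1 changed at an adjusted p under 0.05: IGF1 fell to 55.9% of its shNTC+Dox level. No receptor, substrate or binding protein passed, in either direction. One gene in 8 is 12.5%, beside 17.3% of all tested genes (2910 of 16785) at the same threshold, of which 8.59% were higher and 8.75% lower in shEHD1+Dox. At the stricter threshold of the study's methods, which adds a fold change of at least 2, none of the 8 passed and 2.82% of all genes did. At an unadjusted p under 0.05 by edgeR there were 3, IGF1, IGF1R and IGF2R, beside 32.3% of all genes. By the DESeq2 Wald test 2 passed the adjusted threshold, IGF1 and IGF2R, beside 23.9% of the 15147 genes to which it gave an adjusted p. The values of the 2 groups did not overlap for 3 of the 8 (37.5%), beside 39.3% of all genes. The log2 fold change was above 0 for 5 and below 0 for 3, with a median of 0.09 beside 0.00 over all tested genes. The median of the 8 was -0.04, again beside 0.00, without shNTC+Dox replicate 3, which stood apart from the other controls. Without that library IGF1 and IRS1 passed the adjusted threshold by edgeR, beside 21.8% of all genes. With any other library left out instead, none of the 8 passed, so the call of IGF1 was lost.

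**Figure D1:**
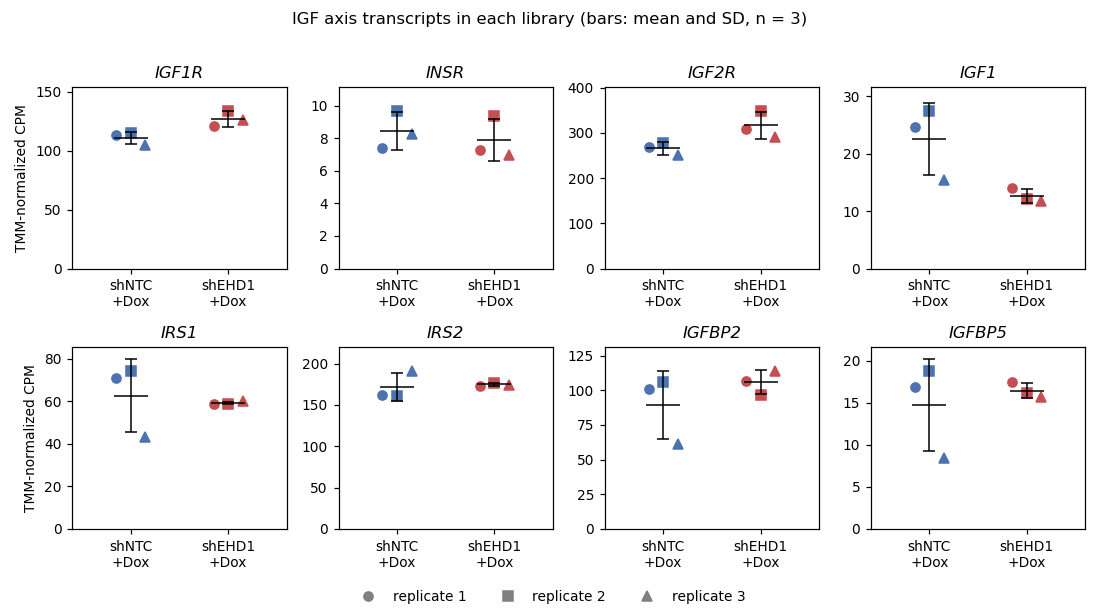
Level of the 8 tested IGF axis genes in each of the 6 libraries, in CPM after TMM normalization, with 1 point per library (shape marks the replicate number) and bars for the mean and SD of 3. The shNTC+Dox libraries of IGF1 all lie above the shEHD1+Dox libraries, those of IGF1R and IGF2R all lie below, and shNTC+Dox replicate 3 lies well under its 2 companions for IGF1, IRS1, IGFBP2 and IGFBP5.

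The knockdown was present in every shEHD1+Dox library. EHD1 was at 27.1, 28.0 and 26.4 CPM, the counts of a gene scaled by library size after TMM normalization, in the shNTC+Dox libraries and at 7.55, 7.15 and 9.37 CPM in the shEHD1+Dox libraries. The groups were far apart, and EHD1 fell by 1.76 on the log2 scale (SE 0.12, edgeR adjusted p = 0.000135). The EWS cell type was checked with 11 marker genes, which do not tell TC71 from other EWS lines, among them CD99, NKX2-2, NR0B1, STEAP1 and PRKCB. Their summed level was 1840, 1830 and 1780 CPM in the controls and 1850, 1760 and 1880 CPM after EHD1-KD, with PRKCB the most abundant at 539 CPM in shNTC+Dox. Within that sum STEAP1 fell (edgeR log2 fold change -0.43, adjusted p = 0.00443) and CD99 rose (0.33, adjusted p = 0.0293). CCK had 11, 5 and 12 counts in the controls and 0 in each knockdown library, and each of the others had at least 222 counts in every library. Summed markers of leukocytes, epithelium, endothelium and skeletal muscle stayed at or under 0.403 CPM in every library, and those of fibroblasts, chiefly COL1A1, at 20.1 to 29.7 CPM. Within the fibroblast list DCN was lower after EHD1-KD (edgeR log2 fold change -1.01, adjusted p = 0.00778), while COL1A1 (0.16, adjusted p = 0.539) and LUM (0.44, adjusted p = 0.34) had values above 0 that did not pass.

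One control library stood apart. Per gene, counts of shNTC+Dox replicates 1 and 2 differed by 5.64 times the variance that counting alone gives, whereas replicate 3 differed from them by 26.4 and 27.9 times. Within shEHD1+Dox the same measure ran from 8 to 18.7, so no library repeated another. In shNTC+Dox replicate 3 the levels of IGFBP5, IRS1, IGFBP2 and IGF1 were 0.474, 0.593, 0.594 and 0.595 times the mean of the other 2 controls. IGF1R (0.920), IGF2R (0.921) and INSR (0.972) were close to it, and IRS2 was higher (1.18). It was the lowest of all 6 libraries for 5 of the 8 genes, beside 27.5% of all tested genes. Values without this library are therefore given where leaving it out moved a named gene across the threshold or turned its sign.

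IGF1 encodes the main ligand of IGF-1R and lies on chr12:102395874-102481744 (hg38, minus strand). Its counts were 650, 762 and 347 in the controls and 399, 298 and 363 after EHD1-KD. After normalization these were 24.7, 27.5 and 15.5 CPM in the control libraries and 14.0, 12.2 and 11.7 CPM in the knockdown libraries. Every knockdown library was below every control library, and the closest pair was control replicate 3 and knockdown replicate 1. The mean went from 22.6 ± 6.26 CPM (SD, n = 3) to 12.6 ± 1.21 CPM (SD, n = 3), a log2 fold change of -0.84 (SE 0.20, 95% interval -1.29 to -0.39, edgeR adjusted p = 0.0225). Without shNTC+Dox replicate 3 it was -1.05 (edgeR adjusted p = 0.000216), past the 2-fold threshold too. Without any 1 of the other 5 libraries the log2 fold change ran from -0.92 to -0.67 and the edgeR adjusted p from 0.0581 to 0.0919, so the call was lost each time. In bulk RNA, a lower level in each cell and fewer cells with the transcript cannot be told apart.

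IGF1 shares exon sequence with another gene. HELLPAR, a long non-coding RNA first described in connection with HELLP syndrome, lies on the opposite strand at chr12:102197585-102402596, annotated as a single exon of 205012 bases. It covers 6693 bases of IGF1, which are 82.5% of the 8115 exon bases of IGF1 and form its long 3′ end, but only 3.26% of the exon of HELLPAR. The library kit does not keep strand, so reads from the shared bases cannot be told apart between the 2 genes. HELLPAR had 977, 870 and 746 counts in the controls and 365, 402 and 453 after EHD1-KD, which is 37.1, 31.4 and 33.4 CPM against 12.8, 16.4 and 14.6 CPM. It fell with wide separation, from 34.0 ± 2.89 to 14.6 ± 1.81 CPM (SD, n = 3 each), a log2 fold change of -1.22 (SE 0.12, edgeR adjusted p = 0.000434), and control replicate 3 was not low for it. The 2 genes summed had 1627, 1632 and 1093 counts in the controls and 764, 700 and 816 after EHD1-KD. This sum, which would not depend on the assignment of shared reads if each was counted once, was lower by edgeR with a log2 fold change of -1.05 (SE 0.10, adjusted p = 0.000397). The count of IGF1 per count of HELLPAR was 0.665, 0.876 and 0.465 in the control libraries and 1.09, 0.741 and 0.801 in the knockdown libraries. These ratios overlapped and differed by 0.42 on the log2 scale (exact two-sided permutation p = 0.3, where 0.1 is the smallest that 3 against 3 can give).

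**Figure D2:**
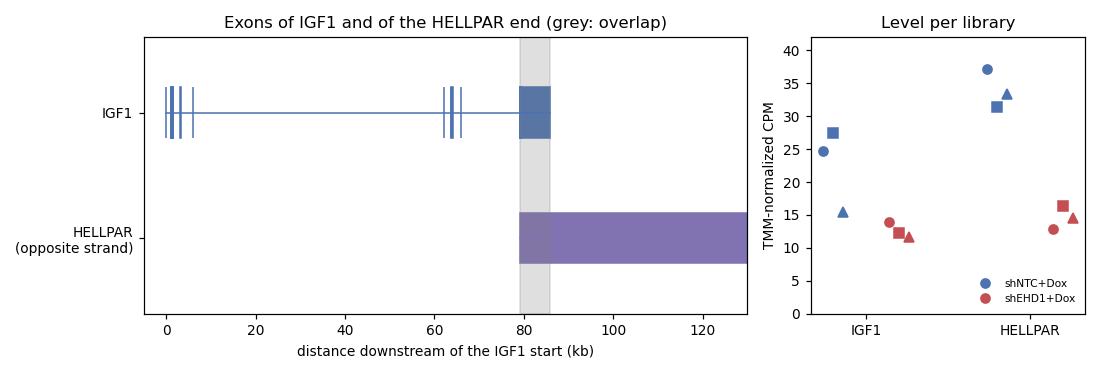
Left, exons of IGF1 and the end of HELLPAR by distance downstream of the IGF1 start in kilobases, with the shared 6693 bases in grey; right, TMM-normalized CPM of both genes in each library, with shapes for the replicate numbers. The shared stretch is the last and longest exon block of IGF1, and both genes are lower in all 3 shEHD1+Dox libraries than in any shNTC+Dox library.

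IGF2, the fetal growth factor on chr11:2129112-2158391, was close to absent. It had 7, 0 and 0 counts in the controls and 6, 0 and 0 after EHD1-KD, too few to test. In the 4 libraries with none, 3 counts would be 0.0981 to 0.132 CPM, which is the level that a count of 0 still allows. The genes that share its exons, IGF2-AS, INS-IGF2 and 2 without a symbol, had no count in any library.

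The 250 bases before 3 start sites show how unlike the ligand gene IGF1 and the receptor genes IGF1R and IGF2R are at their 5′ ends. They come from RefSeq (GRCh38.p14), which had such a window for 9 of the 10 genes, all but IGF2. Each is written 5′ to 3′ on the strand of its gene. Capitals mark TGTTTAC or its reverse complement GTAAACA, a word bound by FOXO factors, and CACGTG, the E-box word bound by MYC and by the lysosomal regulator TFEB. IGF1 is shown because it changed, with its upstream start at chr12:102481748-102481997 (minus strand), and IGF1R as the receptor the study followed, at chr15:98648289-98648538 (plus strand). IGF2R, at chr6:159968832-159969081 (plus strand), is shown for its repeated word.
IGF1: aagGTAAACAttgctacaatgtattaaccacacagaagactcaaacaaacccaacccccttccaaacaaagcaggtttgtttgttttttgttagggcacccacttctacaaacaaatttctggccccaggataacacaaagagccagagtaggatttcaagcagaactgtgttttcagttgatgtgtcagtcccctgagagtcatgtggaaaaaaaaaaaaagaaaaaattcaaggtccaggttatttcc
IGF1R: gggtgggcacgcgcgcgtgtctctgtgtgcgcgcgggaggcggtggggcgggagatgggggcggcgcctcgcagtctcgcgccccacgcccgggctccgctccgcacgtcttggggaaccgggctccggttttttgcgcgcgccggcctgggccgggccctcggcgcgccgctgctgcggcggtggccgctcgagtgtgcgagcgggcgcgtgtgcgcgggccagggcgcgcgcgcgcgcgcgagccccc
IGF2R: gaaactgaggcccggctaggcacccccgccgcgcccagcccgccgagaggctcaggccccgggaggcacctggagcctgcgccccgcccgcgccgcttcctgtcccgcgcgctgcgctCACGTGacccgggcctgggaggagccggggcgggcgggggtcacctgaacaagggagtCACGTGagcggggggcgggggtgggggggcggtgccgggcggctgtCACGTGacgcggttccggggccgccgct
The IGF1 window was 39.6% G and C and held 0 CpG, whereas the IGF1R window was 81.2% G and C with 48 CpG and the IGF2R window 79.2% with 33. The median of 35116 windows of that length was 58.0% with 11 CpG. Of all windows, 2.98% held the FOXO word on either strand, as the printed window of IGF1 does, and IGF1R held none of the words searched. A second IGF1 start, with its window at chr12:102478551-102478800, had 1 CpG and no FOXO word. CACGTG stood in 6.34% of windows and 3 or more times in 0.0797%, among them IGF2R. TGTTTTG or CAAAACA, a word of insulin response elements, stood in 4.30% of windows and in IRS2, and GGAAGGAA or TTCCTTCC, a tandem of the core word of ETS factors such as FLI1, stood in 3.06% and in no window of the axis. The words were chosen after the sequences had been seen, and a match describes the letters only.

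IGF1R, on chr15:98648539-98964530 (plus strand), is the signaling receptor for both ligands. Its counts were 2983, 3195 and 2349 in the controls and 3440, 3267 and 3913 after EHD1-KD, or 113, 115 and 105 CPM against 121, 134 and 126 CPM. The knockdown libraries were all above the control libraries, by little. The mean was 111 ± 5.4 CPM in the controls and 127 ± 6.38 CPM after EHD1-KD (SD, n = 3 each), a difference of 0.19 on the log2 scale (SE 0.07, 95% interval 0.03 to 0.35). It did not pass after adjustment (edgeR adjusted p = 0.0960, unadjusted 0.0239). That interval is for the gene alone, not adjusted for the number of genes tested. Leaving out 1 library at a time gave 0.15 to 0.23, with edgeR adjusted p from 0.125 to 0.212.

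IGF2R, on chr6:159969082-160113507 (plus strand), was the most abundant transcript of the axis in CPM. It had 268, 278 and 251 CPM in the controls and 309, 349 and 292 CPM after EHD1-KD, from 5616 to 9022 counts. Again all knockdown libraries were above all control libraries. The log2 fold change was 0.25 (SE 0.08, 95% interval 0.07 to 0.44, edgeR adjusted p = 0.0661), and the DESeq2 Wald test gave the same fold change with an adjusted p of 0.0272. A pseudogene with 571 shared exon bases, CHP1P2, had 97 counts in all 6 libraries together, and adding them left the fold change at 0.25.

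INSR, on chr19:7112255-7294414 (minus strand), was the least abundant receptor. It had 7.37, 9.68 and 8.28 CPM in the controls and 7.30, 9.36 and 6.95 CPM after EHD1-KD, from 185 to 268 counts. The groups overlapped over most of their range. Its log2 fold change of -0.10 (SE 0.17, 95% interval -0.48 to 0.28, edgeR adjusted p = 0.712) leaves changes of either sign within the interval.

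IRS2 and IRS1 encode the docking proteins that the activated receptors phosphorylate. IRS2, on chr13:109752695-109786583 (minus strand), was at 162, 161 and 191 CPM in the controls and at 173, 177 and 174 CPM after EHD1-KD. The knockdown values lay within the control range, and the log2 fold change was 0.02 (SE 0.08, edgeR adjusted p = 0.864). IRS1, on chr2:226731312-226799820 (minus strand), was at 70.8, 74.2 and 43.0 CPM in the controls and at 58.8, 58.7 and 59.9 CPM after EHD1-KD. The knockdown libraries were nearly equal and stood between control replicate 3 and the other 2 controls. With all libraries the log2 fold change of IRS1 was -0.09 (SE 0.18, edgeR adjusted p = 0.787), without control replicate 3 it was -0.30 (adjusted p = 0.00703), and without control replicate 1 or 2 it was 0.01 or 0.05. Whether IRS1 differed thus rested on 1 library.

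The binding proteins IGFBP2 and IGFBP5, which lie next to each other on chromosome 2, behaved like IRS1 in the control libraries. IGFBP2, at chr2:216632828-216664436 (plus strand), had 101, 106 and 61.3 CPM in the controls and 107, 96.9 and 114 CPM after EHD1-KD. Its groups overlapped, with control replicate 3 the lowest, and the log2 fold change was 0.25 with all libraries (SE 0.19, 95% interval -0.21 to 0.71, edgeR adjusted p = 0.422) and 0.04 without that library. IGFBP5, at chr2:216672105-216695549 (minus strand), had 16.9, 18.8 and 8.46 CPM in the controls and 17.5, 16.2 and 15.7 CPM after EHD1-KD. The log2 fold change of IGFBP5 was 0.16 with all libraries (SE 0.26, edgeR adjusted p = 0.721) and -0.12 without control replicate 3, so its sign also rested on that library. Among genes that share exon bases with them, DIRC3-AS1 (with IGFBP5) had 30 counts in all libraries together and ENSG00000275741 (with IRS2) had 1.

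IGFBP3, at chr7:45912245-45921874 (minus strand), had 0 counts in all 6 libraries, which allows up to 0.0981 to 0.132 CPM per library. It was not tested, and no fold can be given. The rest of the family was uneven too. IGFBP1 was also at 0 in every library, and IGFBP6 was low, at 1.41 ± 0.0946 CPM in the controls and 1.40 ± 0.336 CPM after EHD1-KD (SD, n = 3 each). IGFBP4 had 27.4, 25.8 and 54.0 CPM in the controls and 22.2, 20.6 and 21.9 CPM after EHD1-KD. IGFBP4 was thus high, not low, in control replicate 3, and its log2 fold change of -0.72 (edgeR adjusted p = 0.133) shrank to -0.30 without that library (adjusted p = 0.0305). IGFBP7, an IGFBP-related protein, had 3.38, 3.29 and 10.6 CPM in the controls and 6.29, 4.62 and 5.01 CPM after EHD1-KD. Its log2 fold change went from -0.11 (edgeR adjusted p = 0.899) to 0.67 without control replicate 3 (adjusted p = 0.0356).

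**Figure D3:**
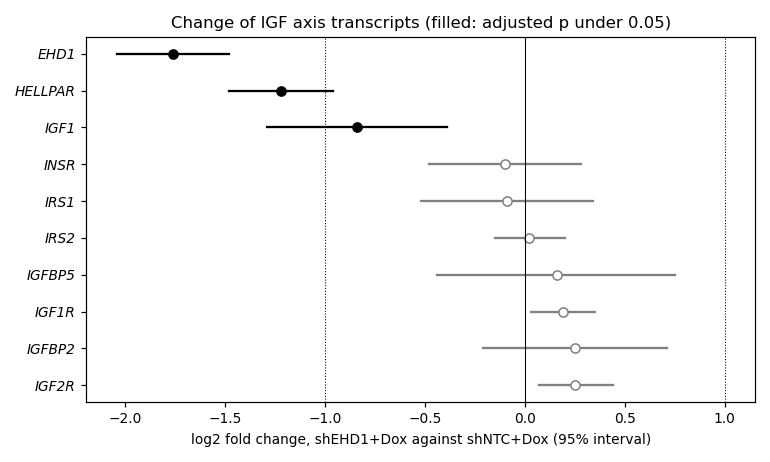
Log2 fold change of shEHD1+Dox against shNTC+Dox with its 95% interval from edgeR for EHD1, HELLPAR and the 8 tested IGF axis genes, filled where the adjusted p was under 0.05; dotted lines mark a 2-fold change. EHD1 (-1.76), HELLPAR (-1.22) and IGF1 (-0.84) are filled, and the intervals of IGF1R and IGF2R lie just above 0.

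Set per kilobase of annotated exon, the scale on which genes can be compared with each other, the axis spanned a wide range. In shNTC+Dox the levels were 21.0 ± 2.09 CPM per kilobase for IRS2, 18.8 ± 5.12 for IGFBP2, 11.8 ± 0.595 for IGF2R and 7.98 ± 0.388 for IGF1R (SD, n = 3 each). Below them came IRS1 at 6.26 ± 1.71, IGF1 at 2.78 ± 0.772, IGFBP5 at 2.28 ± 0.850 and INSR at 0.780 ± 0.107 CPM per kilobase (SD, n = 3 each). The libraries of neighbouring genes in this order overlapped for IRS2 and IGFBP2 and for IGF1 and IGFBP5, and for no other neighbours. In shEHD1+Dox IGFBP2 (22.4 ± 1.85) and IRS2 (21.4 ± 0.259) still overlapped, with their means in the other order. IGFBP5 (2.54 ± 0.142) and IGF1 (1.56 ± 0.149) no longer did. Taken library by library, IGF1 was above IGFBP5 in all 3 controls (3.04 against 2.62, 3.39 against 2.90 and 1.91 against 1.31) and below it in all 3 knockdown libraries. The length of the longest transcript in place of all exons moved IGF2R up to 18.7 CPM per kilobase in shNTC+Dox, where it kept the order of the means. In shEHD1+Dox it put IGF2R (22.3) above IRS2 (21.4). The level of IGF1 on this scale also depends on how reads from the bases shared with HELLPAR were assigned, which was not tested.

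**Figure D4:**
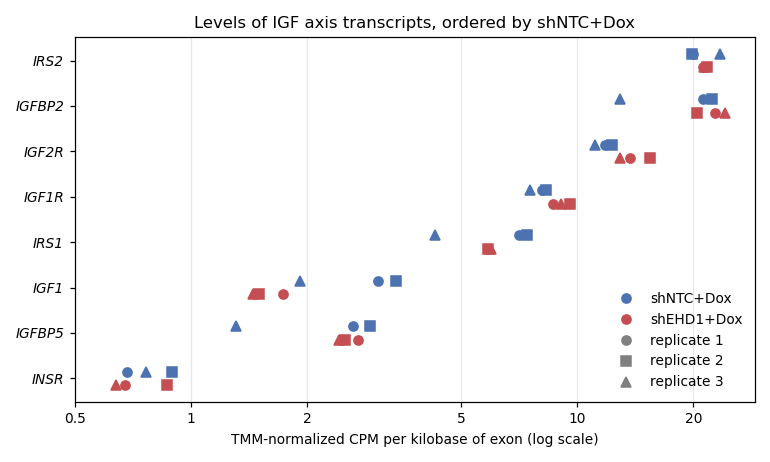
Level of each tested IGF axis gene in TMM-normalized CPM per kilobase of exon on a log axis, with 1 point per library, colour for the group and shape for the replicate number, ordered by the shNTC+Dox mean. IRS2 and IGFBP2 are near 20, INSR is under 1, and within each library IGF1 is above IGFBP5 in the 3 controls and below it in the 3 knockdown libraries.

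Ratios of related members were then taken within each library. Per kilobase the level of IGF1R was 11.9, 9.26 and 9.86 times that of INSR in the controls and 12.8, 11.1 and 14.1 after EHD1-KD. The level of IGF1R was many times that of INSR in every library, and the groups overlapped (log2 difference 0.29, exact two-sided permutation p = 0.2, adjusted over 3 ratios 0.6). IRS2 was at 2.81, 2.67 and 5.46 times the level of IRS1 in the controls and at 3.61, 3.70 and 3.56 times after EHD1-KD, with control replicate 3 the high value (log2 difference 0.07, exact permutation p = 1.0). Without that library the log2 difference was 0.40 and the groups did not overlap, and without control replicate 1 or 2 it was -0.08 or -0.11. IGF2R was at 1.46, 1.49 and 1.47 times the level of IGF1R in the controls and at 1.58, 1.61 and 1.42 times after EHD1-KD, again with overlap (log2 difference 0.06, exact permutation p = 0.4, adjusted 0.6).

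Around the axis, 7 further lists held 113 genes, of which 91 were tested. Of these, 28 passed an adjusted p under 0.05 by edgeR (30.8%, beside the 17.3% of all genes), 19 higher and 9 lower, and 5 also changed by at least 2-fold. The lists were chosen with earlier results of these data known. Their share therefore cannot show whether the pathway changed more than other genes, which was not tested. The median log2 fold change over the 91 was 0.06. Without shNTC+Dox replicate 3 the passing genes numbered 40, beside 21.8% of all genes, and without shEHD1+Dox replicate 1 they numbered 11, beside 8.15% of all genes. With shNTC+Dox replicate 3 left out, the medians for the other ligands and adaptors, the IGF2BP list, the inhibitors and the processing genes were 0.03, 0.07, 0.19 and -0.05.

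Among the other ligands, receptors and adaptors, 3 of 10 tested genes passed (30.0%, beside 17.3% of all genes). SHC1, the adaptor that links receptors to RAS, had 346, 340 and 325 CPM in the controls and 254, 233 and 260 CPM after EHD1-KD. It was lower in every knockdown library, at 0.738 times the control level (log2 fold change -0.44, edgeR adjusted p = 0.00394). GAB1, a docking protein, rose by 0.44 (adjusted p = 0.0373) and SOS2, a RAS exchange factor, by 0.32 (adjusted p = 0.0267) on the log2 scale. INS and IRS4 were at 0 counts in every library, and the median of the list was 0.02. Among 12 tested binding proteins and their regulators, 1 passed (8.33%, beside 17.3% of all genes). The list includes proteases that release IGFs from IGFBPs and inhibitors of those proteases. CTSD, the lysosomal protease cathepsin D, rose from 79.9 ± 5.70 to 122 ± 4.75 CPM (SD, n = 3 each; log2 fold change 0.61, edgeR adjusted p = 0.00127), and the median of the list was -0.14. Without shNTC+Dox replicate 3, 2 genes of this list passed as higher (CTSD and IGFBP7) and 2 as lower (IGFBP4 and PAPPA). The shares of all genes in that fit were 11.4% and 10.5%, and the median of the list was 0.01. PAPPA, a protease that cleaves IGFBP4, went from -0.29 (edgeR adjusted p = 0.301) to -0.49 (adjusted p = 0.00117). PAPPA2 was at 0 counts in every library.

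The IGF2BP proteins bind IGF2 and other mRNAs, and were listed with the imprinted and fetal-growth genes that accompany IGF2. Of 7 tested, 2 rose and 2 fell (57.1% passing, beside 17.3% of all genes), with a median log2 fold change of 0.00. IGF2BP2 (0.29, edgeR adjusted p = 0.0365) and LIN28B, a blocker of let-7 processing (0.39, adjusted p = 0.0272), were higher. IGF2BP3 (-0.30, edgeR adjusted p = 0.0204) and PLAG1, a transcription factor that can activate IGF2 (-0.31, adjusted p = 0.0253), were lower. IGF2BP1, the most abundant of the list, was at 390 ± 26.7 CPM in the controls and 390 ± 11.0 CPM after EHD1-KD (SD, n = 3 each).

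Of 19 tested inhibitors and ubiquitin ligases of the receptors, 5 rose and 2 fell, with a median of 0.17. That is 36.8% passing, beside 17.3% of all genes, of which 8.59% were higher and 8.75% lower. SOCS2, which restrains growth hormone and IGF signaling, had 7.49, 7.95 and 10.2 CPM in the controls and 22.3, 17.6 and 19.1 CPM after EHD1-KD. It was higher in every knockdown library, by 2.30-fold (log2 fold change 1.20, edgeR adjusted p = 0.00152). CBLB, a ubiquitin ligase of receptor tyrosine kinases, rose 1.68-fold (edgeR adjusted p = 0.00225) and ENPP1, an ectoenzyme that inhibits the insulin receptor, 1.5-fold (adjusted p = 0.0146). GRB14, an adaptor that inhibits the insulin receptor, had 2.55, 2.31 and 2.37 CPM in the controls and 1.37, 1.23 and 1.00 CPM after EHD1-KD. It fell 2.01-fold (edgeR adjusted p = 0.0205) at 30 to 67 counts a library. The other 3 that passed were SOCS6 and CBL, higher, and PTPRF, lower. Of 5 tested genes for processing and folding of the receptors, PCSK6, a proprotein convertase, fell by 0.37 on the log2 scale (edgeR adjusted p = 0.0452). SORL1 was at 0 counts, and HSP90B1, the endoplasmic reticulum chaperone and the most abundant of that list, had 0.27 on the log2 scale (edgeR adjusted p = 0.0647), and 0.34 without shNTC+Dox replicate 3 (adjusted p = 0.0128). The median of that list was -0.02.

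Active AKT restrains FOXO proteins, and so the genes that they activate. The list held genes known to be activated by FOXO factors and also the transcripts of the factors themselves. Of 19 tested, 6 rose and 1 fell (36.8% passing), with a median log2 fold change of 0.20. Of all genes, 17.3% passed, 8.59% higher and 8.75% lower, with a median of 0.00. Without shNTC+Dox replicate 3, 6 passed as higher and 3 as lower, beside 11.4% and 10.5% of all genes. The lower genes were then TRIB1 (-0.81, edgeR adjusted p = 0.000133), FOXO6 (-0.73, adjusted p = 0.015) and BCL6, and the median was 0.16. GADD45A, a stress-response gene, had 9.92, 9.32 and 10.4 CPM in the controls and 17.2, 18.1 and 18.4 CPM after EHD1-KD. It was close to equal within each group and 1.81-fold higher after knockdown (edgeR adjusted p = 0.00126). FBXO32, the ubiquitin ligase atrogin-1, rose 2.02-fold (edgeR adjusted p = 0.00837) and SESN1, a sestrin that restrains mTORC1, 1.32-fold (adjusted p = 0.0089). BCL6, a transcriptional repressor, fell from 33.7 ± 2.09 to 17.0 ± 1.22 CPM (SD, n = 3 each; edgeR log2 fold change -0.99, adjusted p = 0.00044). The others that passed, TXNIP, CDKN1B and FOXO3, were higher, and PDK4 and PCK1 were at 0 counts in every library.

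The immediate early genes that ERK signaling induces, listed with its feedback regulators, were split. Of 19 tested, 3 rose and 2 fell (26.3% passing, beside 17.3% of all genes), and the median was 0.12. Without shNTC+Dox replicate 3, 4 passed as higher and 5 as lower, beside 11.4% and 10.5% of all genes, and the median was 0.23. Of the passing genes 4 were shared with the fit of all libraries. Those that passed only then were EGR1 (-0.58, edgeR adjusted p = 0.000936), DUSP6 (-0.77, adjusted p = 0.0046) and IER2 (-0.26, adjusted p = 0.0192), lower. DUSP5 (0.88, adjusted p = 0.0105) and SPRED1 (0.33, adjusted p = 0.0289) were higher. JUN had 8.66, 12.6 and 7.61 CPM in the controls and 24.1, 20.6 and 19.3 CPM after EHD1-KD. It was higher in every knockdown library, by 2.21-fold (edgeR adjusted p = 0.00486), and PHLDA1, a gene induced by IGF-1 in fibroblasts, was 1.83-fold higher (adjusted p = 0.00443). SPRY4, a feedback inhibitor of RAS-ERK signaling, had 3.84, 3.00 and 3.85 CPM in the controls and 1.09, 1.02 and 0.388 CPM after EHD1-KD, which is 83 to 101 counts against 12 to 31. It fell 4.29-fold (edgeR adjusted p = 0.00582). MYC fell by 0.30 on the log2 scale (edgeR adjusted p = 0.0129) from 386 ± 5.83 CPM (SD, n = 3), while SPRY2, the fifth, rose by 0.54 (adjusted p = 0.0473). The value of SPRY2 was 0.49 without shNTC+Dox replicate 3 and its edgeR adjusted p 0.0609, so that call was lost.

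**Figure D5:**
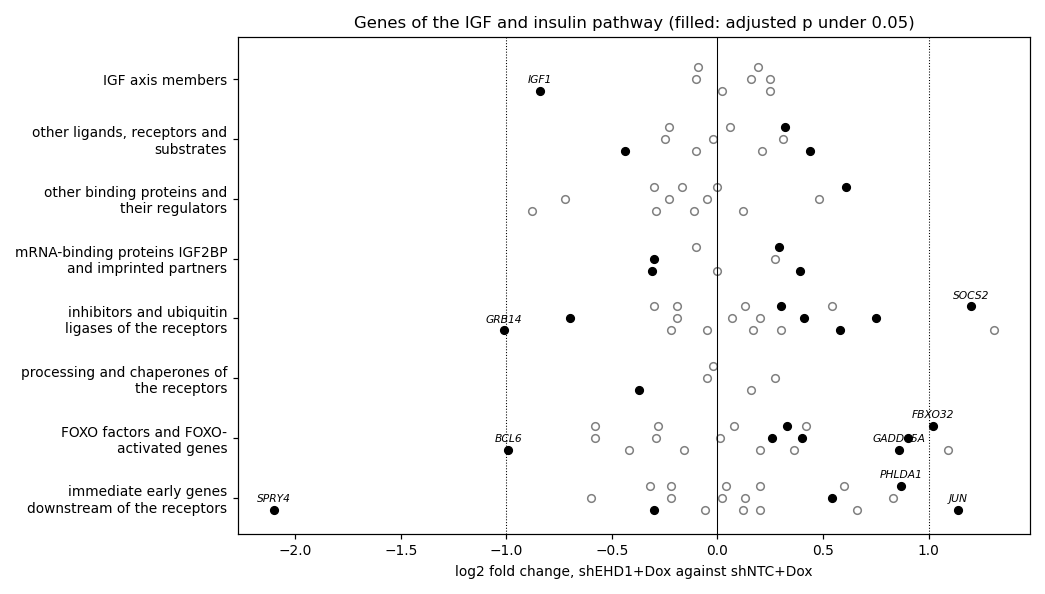
Log2 fold change of each tested gene of the IGF axis and of the 7 further lists, filled where the edgeR adjusted p was under 0.05, with vertical spacing for legibility only and dotted lines at a 2-fold change. In the axis IGF1 alone is filled, whereas SOCS2, GRB14, FBXO32, JUN and SPRY4 are filled at or beyond a dotted line in the other lists.

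The 3 genes whose level followed that of IGF1R most closely, among 11286 genes with a mean of at least 5 CPM, were TPT1-AS1 (Pearson r = 0.9959 over the 6 libraries), MINDY2 (0.9942) and WDFY3 (0.9925). WDFY3, an autophagy adaptor, had 95.9, 102 and 83.7 CPM in the controls and 115, 135 and 127 CPM after EHD1-KD. As for IGF1R, control replicate 3 was its lowest library and knockdown replicate 2 its highest, and 627 genes had an r above 0.9 over these libraries, which share 2 groups.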

How the data were processed

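Total RNA of TC71 cells was made into libraries with the unstranded TruSeq RNA v2 kit and sequenced as paired ends. The authors deposited whole-number counts per gene, not normalized. Their methods name hisat2, StringTie and hg38, whereas the submitters' processing notes list STAR 2.7.3a and DESeq2, and how the counts were derived and shared reads assigned is not given in the sources used here. All columns were mapped to a labelled library. Of 60676 genes, 29676 had no count, and 60357 identifiers (99.5%) were found in GENCODE 44, the source of coordinates and exon lengths.

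Counts were normalized by TMM and tested with the quasi-likelihood test of edgeR 4.0.16 in R 4.3.3, with Benjamini-Hochberg adjustment over 16785 genes. The methods name DESeq2, and its Wald test (version 1.42.0) was an alternative, with its size factors, 2 other filters, a replicate block, each library left out, summed counts of overlapping genes and another gene length. Ratios were tested by exact permutation in scipy 1.17.1. The fits were also tried on simulated data, and no result from that is used here. The floor of 3 counts covers counting error alone, because the libraries carried no molecular identifiers.

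The members and lists were chosen with earlier results of these data known, and the lists were written from general knowledge. Named were EHD1, all members, genes that share their exons, up to 4 genes per list with the smallest adjusted p under 0.05, and the 3 genes most like IGF1R. Remaining genes, such as other IGFBPs, were named after their values were seen.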

Additional observations from a re-analysis of the deposited data

How the results depend on the processing

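IGF1 was lower in shEHD1+Dox under every alternative. With DESeq2 size factors, both other filters, the DESeq2 Wald test and the replicate block its adjusted p stayed under 0.05, at 0.000514 to 0.0297, and its counts summed with those of HELLPAR gave -1.05 (adjusted p = 0.000397). With each library left out its log2 fold change ran from -1.05 to -0.67, and only without shNTC+Dox replicate 3 did it pass (without the others -0.77, -0.67, -0.92, -0.81 and -0.79). The members that passed numbered 2 under the DESeq2 Wald test and 0 to 2 with a library left out, the pathway genes 11 to 40 beside 28. Over all genes 2910 passed, 1766 with the replicate block and 1322 to 3616 with a library left out, and 473 passed with a 2-fold change, 293 to 452 with a library left out. The same-numbered libraries did not deviate together (r = 0.072, -0.0593 and -0.0448), so the numbers were not taken as pairs, and the replicate block kept IGF1 (-0.80, adjusted p = 0.0297) as the member that passed. Signs turned with 1 control library left out for IRS1 (-0.30 to 0.05 over all 6 omissions), IRS2 (-0.02 to 0.11) and IGFBP5 (-0.12 to 0.37). INSR ran from -0.25 to 0.00, the latter without shNTC+Dox replicate 2. IRS1 and IGFBP5 were lowest without shNTC+Dox replicate 3, and the cause was not tested. HELLPAR stayed between -1.31 and -1.13. INSR had the fewest counts of the tested members, 185 to 268 a library, and IGFBP5 the largest SE (0.26).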
